A study of Mus musculus with 6 samples.

Results

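The genes that copy DNA and open S phase were compared between mouse bone marrow cultures that lack miR-155 and wild-type cultures. The 48 genes were listed by name, and 43 of them had a row of their own among the 14860 genes tested. Pcna, Rfc2, Lig1, Rrm2 and E2f3 were not analysed here. There were 3 arrays of bone marrow progenitor cultures with miR-155, a microRNA of blood cells, knocked out, and 3 arrays of wild-type cultures. The cells of all 6 arrays came from female C57Bl/6 mice 12 weeks old that had been given 5-FU (fluorouracil, which kills dividing marrow cells). All had been transduced with MSCV retroviral constructs for Hoxa9 and Meis1, a pair of homeobox genes that together immortalise myeloid progenitors, and all grew in DMEM with 15% FCS (fetal calf serum), IL3, SCF and IL6, which support immature myeloid cells. The labels do not say how many animals or cultures stand behind the arrays, and the 3 wild-type titles end in the same numeral. They do not say either how miR-155 was deleted. The p-values rest on array-to-array spread that may be technical. The comparison asks whether progenitors driven by Hoxa9 and Meis1 differ in these transcripts when miR-155 is missing.

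Replication begins in G1, when the origin recognition complex, Cdc6 and Cdt1 load the MCM2-7 helicase on DNA. Cyclin D with Cdk4 and cyclin E with Cdk2 then inactivate the retinoblastoma protein, which frees E2F factors to switch on most of the replication genes. At the start of S phase the Cdc7-Dbf4 kinase, Cdc45 and the GINS complex turn the loaded helicase into a moving one, and DNA polymerases follow it. In cultured progenitors the summed level of these transcripts also follows how many of the cells are dividing. In whole cultures, fewer cycling cells and less of a transcript in each cell cannot be told apart.

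The deleted microRNA is shown because it defines the groups. Its main mature strand, from RefSeq on GRCm38.p6, lies at chr16:84714143-84714165 on the plus strand, and the capitals mark the seed, bases 2 to 8, by which it pairs with messenger RNAs.
mmu-miR-155-5p: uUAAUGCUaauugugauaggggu

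The promoters of the members are shown because E2F binding sites are the element that many replication genes have in common. RefSeq windows of 300 bases, from 250 before to 50 after each annotated start on GRCm38.p6, were found for 38 of the 48 genes. They were searched on both strands for the 8-letter forms of the E2F site TTTCCCGC, TTTCGCGC, TTTGCCGC and TTTGGCGC. Matches may overlap each other. A match in any window was present in 14 of the 38 genes, 36.8%, against 3.76% of the 11894 tested genes with a window. By role, matches were found in 7 of 10 origin licensing genes, 2 of 4 polymerase and primase genes, 2 of 9 clamp and strand completion genes and 3 of 7 G1/S control genes. They were found in 0 of 4 origin firing and 0 of 4 nucleotide supply genes, so these letters are not in those windows. Of the 16 mitosis genes with a window, which are often read through other promoter elements, 1 had a match. A match is a run of letters and not a measured binding site.

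Windows of 4 members follow, with matches in capitals. Cdt1 and Ccne1 are among the members with an unadjusted p under 0.05, Pola1 has the largest difference of all, and Mcm6 holds the most matches.
Cdt1, chr8:122567765-122568064, plus strand: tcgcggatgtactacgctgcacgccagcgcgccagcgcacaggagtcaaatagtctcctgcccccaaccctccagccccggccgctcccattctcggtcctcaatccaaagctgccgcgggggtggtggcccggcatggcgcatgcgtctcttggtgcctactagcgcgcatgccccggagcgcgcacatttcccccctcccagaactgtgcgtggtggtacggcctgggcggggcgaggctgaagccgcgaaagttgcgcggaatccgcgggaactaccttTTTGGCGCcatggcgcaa
Ccne1, chr7:38107441-38107740, minus strand: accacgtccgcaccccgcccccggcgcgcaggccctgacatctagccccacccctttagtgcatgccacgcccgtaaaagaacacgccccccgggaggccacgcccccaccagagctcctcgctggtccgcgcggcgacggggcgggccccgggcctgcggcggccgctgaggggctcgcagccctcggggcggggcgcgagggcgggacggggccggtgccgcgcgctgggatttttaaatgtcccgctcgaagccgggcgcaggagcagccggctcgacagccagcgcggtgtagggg
Pola1, chrX:93632106-93632405, minus strand: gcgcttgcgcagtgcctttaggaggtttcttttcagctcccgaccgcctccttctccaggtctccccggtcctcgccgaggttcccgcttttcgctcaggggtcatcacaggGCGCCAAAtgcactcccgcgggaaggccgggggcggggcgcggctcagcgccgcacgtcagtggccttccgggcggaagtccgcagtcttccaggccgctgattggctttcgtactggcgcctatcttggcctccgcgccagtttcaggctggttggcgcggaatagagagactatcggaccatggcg
Mcm6, chr1:128359656-128359955, minus strand: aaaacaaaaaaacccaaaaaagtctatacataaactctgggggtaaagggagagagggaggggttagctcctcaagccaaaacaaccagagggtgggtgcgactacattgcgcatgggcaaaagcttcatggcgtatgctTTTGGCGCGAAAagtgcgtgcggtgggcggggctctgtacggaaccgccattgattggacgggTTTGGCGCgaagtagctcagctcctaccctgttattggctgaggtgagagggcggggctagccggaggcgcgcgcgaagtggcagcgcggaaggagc
The Cdt1 match begins 32 bases after the annotated start, and the Ccne1 window has none of the forms searched. The Pola1 match lies on the other strand and begins 138 bases before the start used for its window. The Pola1 gene is annotated further upstream, to chrX:93632387, so this match lies within the gene's outer bounds. In Mcm6 matches begin 110, 106 and 47 bases before the start, and those at 110 and 106 overlap on opposite strands. Members with and without a match were not tested against each other. The median log2 difference, knockout minus wild type, was 0.05 over the 12 measured members with a match and 0.07 over the 22 without.

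The arrays held 23332 log2 values each, with medians between 6.55 and 6.66. All 43 measured members had a mean above 5.98, the 95th percentile of 718 olfactory receptor genes that served as a background level, and 41 had a mean above the median gene. The transduced genes did not separate the groups. Hoxa9 stood at 13.24, 13.22 and 13.12 in the knockout arrays and at 13.23, 13.31 and 13.26 in the wild-type arrays, and Meis1 differed by −0.07 ± 0.08 (SE). The level of the deleted gene itself was not analysed here. Of the cell type markers, 4 of 5 T lymphoid markers (Cd3d, Cd3g, Cd4 and Cd8a) lay below the olfactory percentile, while all 10 neutrophil granule markers lay above it. In the remaining lists most markers also lay above it: 7 of 7 mast cell, 5 of 5 megakaryocyte, 6 of 7 monocyte and 6 of 7 progenitor markers. So did 3 of 5 eosinophil, 3 of 4 erythroid, 3 of 4 B lymphoid and 4 of 7 stromal markers. Over all genes 9823 of 14860 had a mean above that percentile, so such counts do not by themselves show that a cell type was present. Along the main axis of variation over all rows, which held 39.58% of the variance, knockout arrays 1 and 2 shared a side with wild type 2, and knockout 3 shared the opposite side with wild-type arrays 1 and 3. The genotypes are therefore mixed on that axis, and its sides enter some of the results below.

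None of the 43 genes passed the test across all genes. With limma's moderated test and Benjamini-Hochberg adjustment over 14860 genes, 0 members were higher and 0 lower in the knockout, where 0% of all genes were called higher and 0.0269% lower. The smallest adjusted p among the members was 0.453. At an unadjusted p under 0.05, 3 members were higher in the knockout and 0 were lower, against background shares of 1.78% for higher and 5.44% for lower genes. The 3 were Cdt1, Gins1 and Ccne1. In 2 members, Cdt1 and Gins1, every knockout array lay above every wild-type array, where 2.88% of all genes did so. In 0 members did every knockout array lie below, where 10.4% of all genes did. With every array shifted to a common median, 7 members had every knockout array above, against 4.14% of all genes, and after a further quantile normalisation 10 did, against 4.72%. The split of all genes with an unadjusted p under 0.05 was 265 higher and 809 lower as deposited, 322 higher and 589 lower after centring and 334 higher and 578 lower after quantile normalisation.

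The differences of single members were small and mostly on the same side of 0. Fold changes, knockout over wild type, ran from 0.93 (Ccnd2) to 1.24 (Pola1). The log2 difference was above 0 in 34 of 43 members, 79.1%, against 39.0% of all genes and 41.3% of the 7430 genes above the median level. The members' median was 0.07, beside a median of −0.03 over all genes. For 41 members the 95% interval of the difference, not adjusted for the number of genes, lay within a change of 1.5-fold either way, and for 9 it lay within 0.25 on the log2 scale. The exceptions to the 1.5-fold range were Pola1, whose interval reached 0.64 on the log2 scale, and Ccne2, whose interval reached 0.62.

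**Figure D1:**
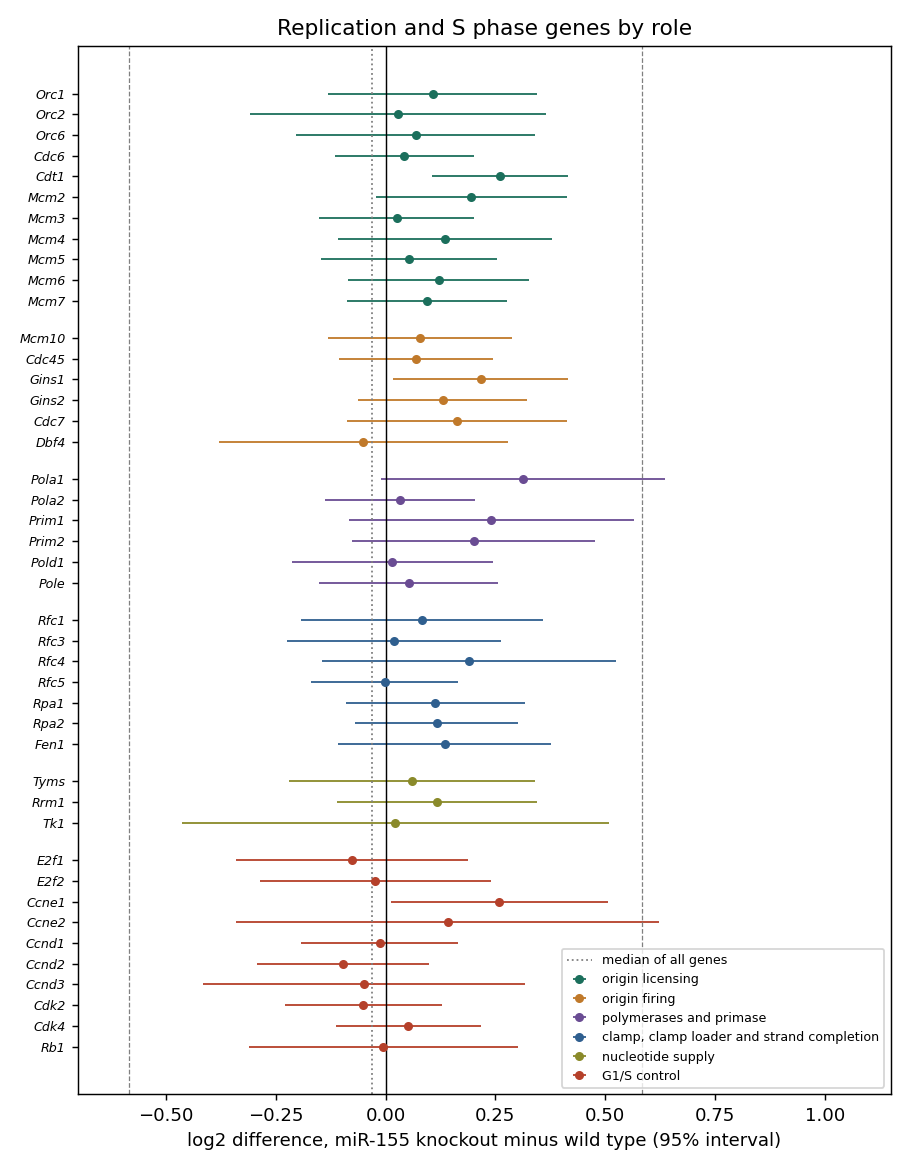
Log2 difference between miR-155 knockout and wild type for the 43 measured members, in order of role, with 95% intervals from limma (3 arrays each, not adjusted for the number of genes). The solid line is 0, the dotted line the median of all genes at −0.03 and the dashed lines 1.5-fold either way. Most replication genes lie right of 0, the G1/S control genes lie on both sides, and only the intervals of Cdt1, Gins1 and Ccne1 exclude 0.

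Origin licensing genes were measured in full, and all 11 lay above 0, with a median log2 difference of 0.10. Cdt1, the licensing factor that loads MCM2-7 and is destroyed once S phase starts, had log2 levels of 9.41, 9.43 and 9.47 in the knockout arrays, against 9.16, 9.20 and 9.17 in the wild-type arrays. The arrays of each genotype lay close together and the groups did not overlap. The log2 difference was 0.26 ± 0.07 (SE), a 1.20-fold higher mean in the knockout (limma, unadjusted p = 0.00502, adjusted p = 0.453). With any 1 array left out the Cdt1 difference stayed between 0.25 and 0.27, with an unadjusted p of at most 0.0214. On the side of the main axis with knockout 1 and 2 and wild type 2 it was 0.22, and on the side with knockout 3 and wild type 1 and 3 it was 0.30.

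The 6 subunits of the MCM2-7 helicase differed by 0.03 (Mcm3) to 0.20 (Mcm2). Mcm3, the brightest row of the licensing group, read 10.72, 10.73 and 10.74 in the knockout arrays, against 10.65, 10.66 and 10.81 in the wild-type arrays. Wild type 3 was the highest of the 6 arrays for Mcm3, so the groups overlapped, and the interval of the difference ran from −0.15 to 0.20. For Mcm2 the mean was 10.09 ± 0.12 in the knockout arrays and 9.89 ± 0.10 in the wild-type arrays (SD, n = 3 each; limma, adjusted p = 0.732), with wild type 3 just above knockout 1. The subunits form 1 complex, yet the deviations of single arrays were not shared by all of them: knockout 3 was highest for Mcm2, knockout 1 for Mcm4 and wild type 3 for Mcm3. The origin recognition subunits Orc1, Orc2 and Orc6 differed by 0.11, 0.03 and 0.07. Orc1 lay between 6.25 and 6.61 on all 6 arrays, little above the olfactory background level of 5.98. Cdc6, which loads the helicase with Cdt1, differed by 0.04, with the knockout arrays between 7.65 and 7.68 and the wild-type arrays between 7.60 and 7.68.

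Of the 6 origin firing genes 5 lay above 0, with a median of 0.10. Gins1, a subunit of the GINS complex that joins Cdc45 and MCM2-7 in the moving helicase, had levels of 8.24, 8.14 and 8.11 in the knockout arrays, against 7.83, 8.06 and 7.95 in the wild-type arrays. The lowest knockout array exceeded the highest wild-type array by less than the SD of either group. The log2 difference was 0.22 ± 0.09 (SE; limma, unadjusted p = 0.0373, adjusted p = 0.653). It ranged from 0.16 to 0.27 with 1 array left out, and the unadjusted p was above 0.05 in 4 of those 6 fits. Gins2, another subunit of the same complex, differed by 0.13 ± 0.08 (SE). Cdc45, the brightest row of the group, read 9.04, 9.03 and 9.19 in the knockout arrays, against 9.01, 9.05 and 8.99 in the wild-type arrays, and only knockout 3 stood clear of the others. The Cdc45 difference was 0.07, and 0.02 without knockout 3. Mcm10, which helps to start the helicase, differed by 0.08. The kinase gene Cdc7 differed by 0.16, while Dbf4, which encodes the regulatory subunit of the same kinase, differed by −0.05 ± 0.14 (SE).

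All 6 polymerase and primase genes lay above 0, with a median of 0.13, and 3 of the 4 genes of the polymerase alpha-primase complex had the largest values. Pola1, the catalytic subunit of the polymerase that lays down each new primer, had levels of 8.56, 8.46 and 8.27 in the knockout arrays, against 7.89, 8.38 and 8.08 in the wild-type arrays. Wild type 2 lay above knockout 3, so the groups overlapped, and wild type 1 was the lowest array. The log2 difference was 0.31 ± 0.14 (SE; limma, unadjusted p = 0.0556, adjusted p = 0.709). Without wild type 1 it was 0.20 and without wild type 2 it was 0.45. Prim2, the large primase subunit, read 9.95, 9.79 and 9.71 in the knockout arrays, against 9.61, 9.82 and 9.43 in the wild-type arrays, and again wild type 2 lay among the knockout arrays. The Prim2 difference was 0.20, and dropping wild type 3 gave 0.11, dropping knockout 1 gave 0.13 and dropping wild type 2 gave 0.30. The catalytic primase subunit Prim1 differed by 0.24 ± 0.14 (SE) and the accessory subunit Pola2 by 0.03 ± 0.07 (SE). The catalytic subunits of the main strand-copying polymerases, Pold1 and Pole, differed by 0.01 and 0.05.

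**Figure D2:**
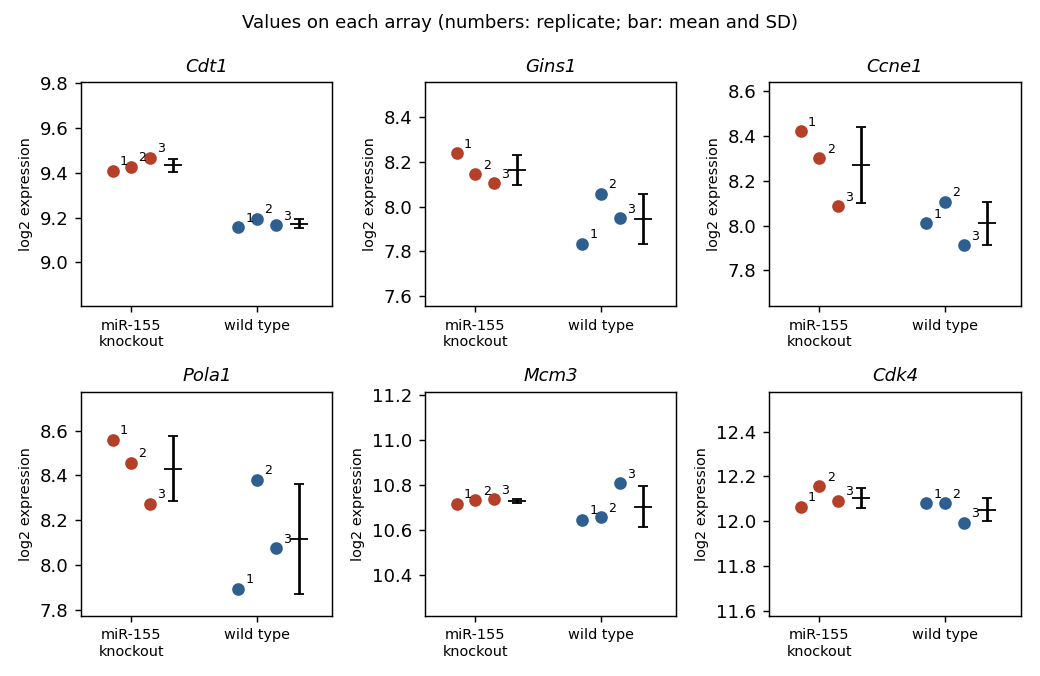
Log2 expression of 6 members on each array, knockout at left and wild type at right, with replicate numbers beside the points and the mean and SD (n = 3) to their right. Each panel spans 1 log2 unit on its own axis. Knockout and wild-type arrays are apart for Cdt1 and Gins1, whereas for Ccne1, Pola1, Mcm3 and Cdk4 they overlap.

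In the group of the sliding clamp, its loader and strand completion, 7 of 10 genes were measured and 6 lay above 0, with a median of 0.11. Rfc4, a subunit of the clamp loader, read 9.76, 9.44 and 9.59 in the knockout arrays, against 9.16, 9.66 and 9.39 in the wild-type arrays, so wild type 2 exceeded knockout arrays 2 and 3. Its difference was 0.19 ± 0.14 (SE; limma, adjusted p = 0.846), and it depended on single arrays, at 0.07 when wild type 1 was dropped, 0.11 without knockout 1 and 0.32 without wild type 2. Rfc5, which belongs to the same loader, read 10.14, 10.17 and 10.12 in the knockout arrays, against 10.22, 10.11 and 10.10 in the wild-type arrays. Its difference lay at 0.00 with an interval from −0.17 to 0.17. The single-strand binding proteins Rpa1 and Rpa2 and the flap endonuclease Fen1, which trims Okazaki fragments, differed by 0.11, 0.12 and 0.13.

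The 3 measured nucleotide supply genes lay between 0.02 and 0.12. Rrm1, the large subunit of ribonucleotide reductase, had levels of 11.11, 10.95 and 10.97 in the knockout arrays, against 10.81, 11.06 and 10.80 in the wild-type arrays. Wild type 2 was again inside the knockout range (difference 0.12, standard error 0.10, limma adjusted p = 0.854). Dropping wild type 2 gave an Rrm1 difference of 0.20, while dropping knockout 1, wild type 1 or wild type 3 gave 0.07 to 0.08. Tk1, the thymidine kinase of cycling cells, had the widest spread of all members, with 7.83, 7.45 and 7.06 in the knockout arrays and 7.15, 7.67 and 7.46 in the wild-type arrays. Its standard error was 0.21, and the interval from −0.46 to 0.51 does not settle a direction. Tyms, which makes thymidylate, differed by 0.06.

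The G1/S control genes did not share the side of the replication machinery: 3 of 10 measured genes lay above 0, with a median of −0.02, beside 31 of the 33 other members, with a median of 0.10. That contrast between roles was not tested. Over all genes 39.0% lay above 0, with a median of −0.03, so the G1/S control genes stood near the background. Ccne1, which encodes cyclin E1, the partner of Cdk2 at S phase entry, read 8.42, 8.30 and 8.09 in the knockout arrays, against 8.01, 8.11 and 7.91 in the wild-type arrays. Knockout 3 lay just below wild type 2. The log2 difference was 0.26 ± 0.11 (SE), a 1.20-fold higher mean (limma, unadjusted p = 0.0419, adjusted p = 0.664), and with 1 array left out it ranged from 0.18 to 0.35. Ccne2, the second cyclin E gene, differed by 0.14 ± 0.21 (SE) and was high on knockout 1 and wild type 2.

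The cyclin D genes, which couple growth factor signals to Cdk4, gave differences of −0.01 for Ccnd1, −0.10 for Ccnd2 and −0.05 for Ccnd3, with standard errors of 0.08, 0.08 and 0.16, and all 3 of their 95% intervals include 0. Ccnd1 lay between 6.15 and 6.32 on all 6 arrays, close to the olfactory background level, so little can be read from it. Cdk4 read 12.07, 12.15 and 12.09 in the knockout arrays, against 12.08, 12.08 and 11.99 in the wild-type arrays, a difference of 0.05 that was 0.03 without knockout 2 and 0.02 without wild type 3. Cdk2, the kinase of the next step, differed by −0.05. The activator E2f1 differed by −0.08 ± 0.11 (SE) and E2f2 by −0.02 ± 0.11 (SE). Rb1, the retinoblastoma gene that restrains E2F, differed by −0.01 ± 0.13 (SE).

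Much of the spread among the members lay between arrays of the same genotype. Set against each gene's own mean over the 6 arrays, the median member stood at 0.11 on knockout 1, 0.02 on knockout 2 and 0.02 on knockout 3, against −0.13 on wild type 1, 0.04 on wild type 2 and −0.06 on wild type 3. Knockout 1 was the highest array for 18 of the 43 members and wild type 1 the lowest for 21. Over all genes the same medians ran only from −0.02 to 0.03. On knockout arrays 1, 2 and 3, 32, 29 and 27 members stood above their own mean, against 8, 30 and 14 on wild-type arrays 1, 2 and 3, so that wild type 2 was on this count close to the knockout arrays. The mitosis genes had medians of 0.10 on knockout 1 and 0.12 on wild type 2, the highest of the 6 arrays for those genes too.

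**Figure D3:**
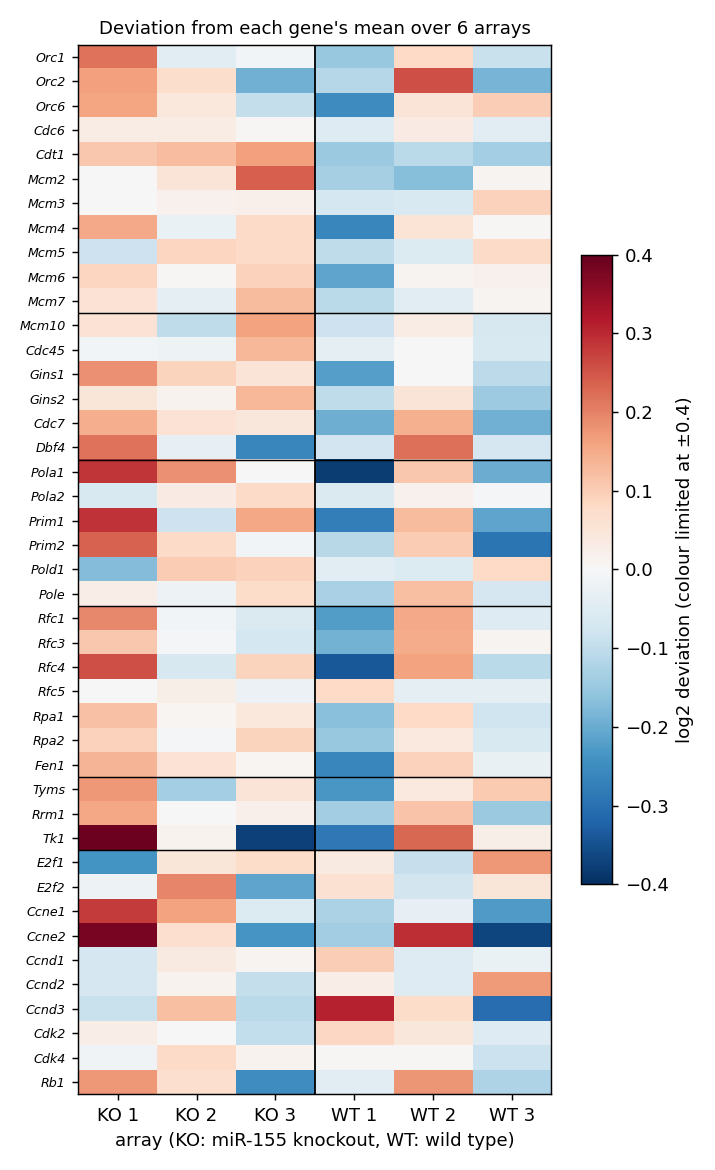
Deviation of each member from its mean over the 6 arrays, on the log2 scale, for knockout arrays 1 to 3 at left and wild-type arrays 1 to 3 at right. Black lines part the roles in the order licensing, firing, polymerases, clamp and strand completion, nucleotide supply and G1/S control. Knockout 1 and wild type 2 are red in many rows and wild type 1 is blue in most.

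The members' median differed between the sides of the main axis. Among knockout 1, knockout 2 and wild type 2, which share a side of the main axis, the median member difference was −0.001 and 21 of 43 members lay above 0. Among knockout 3, wild type 1 and wild type 3 the median was 0.11 and 31 of 43 lay above 0. Over all genes the medians were −0.03 on each side. These values compare 1 array with 2 and carry no test. With all arrays but wild type 1 the members' median was 0.04, and without wild type 2 it was 0.13. Without wild type 2, 8 members had an unadjusted p under 0.05, against 3.49% of all genes higher in that fit. They were Cdt1, Gins1, Ccne1, Pola1, Prim1, Prim2, Rfc4 and Cdc7, and the smallest adjusted p among the members was 0.464. Cdt1 was the only member with an unadjusted p under 0.05 in each of the 6 fits with 1 array left out.

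**Figure D4:**
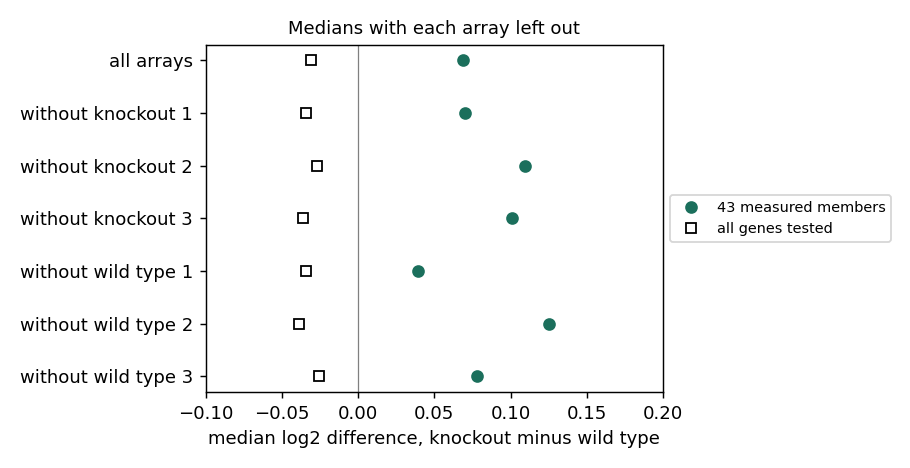
Median log2 difference, knockout minus wild type, of the 43 measured members (filled circles) and of all 14860 genes (open squares), with all arrays and with each array left out. The members' median lies between 0.04 and 0.13 and the all-gene median between −0.04 and −0.03.

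Further genes of replication and of the G1/S switch were read from lists drawn up by function, with earlier results of these data known. Of 42 other replication and S phase genes 38 were measured, 0 passed the adjusted test, and 27 lay above 0, with a median of 0.09. In this list Dna2, a nuclease-helicase of Okazaki fragments, had knockout arrays at 8.56, 8.53 and 8.47 and wild-type arrays at 8.26, 8.45 and 8.33, with no overlap (limma, unadjusted p = 0.0637). Such separation on the higher side was seen in 3 of the 38 genes, Dna2 and Uhrf1 among them, and in 2.88% of all genes. Uhrf1, which brings the maintenance methyltransferase to new DNA, differed by 0.14, the checkpoint kinase gene Chek1 by 0.28 and the polymerase delta subunit Pold2 by −0.17, all with adjusted p between 0.724 and 0.763 (limma). With 1 array left out Chek1 ranged from 0.17 (without wild type 3) to 0.42 (without wild type 2), and Pold2 from −0.24 (without wild type 2) to −0.11 (without knockout 1). Of 20 mitosis genes 18 were measured, and 6 lay above 0, with a median of −0.02. That is 33.3%, near the 39.0% of all genes. Plk1 and Aurkb, kinases of mitotic entry and of chromosome attachment, differed by −0.14 and −0.08. Their groups did not overlap, as was so on the lower side for 2 of the 18 mitosis genes and for 10.4% of all genes, so the list is at the background share. With the mean of its rows in place of the brightest row, Plk1 differed by −0.05. Whether the replication and mitosis lists differ from each other was not tested.

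Of 27 other G1/S regulators 24 were measured and 0 passed the adjusted test, while 1 gene each way had an unadjusted p under 0.05, where 1.78% of all genes were higher and 5.44% lower. These counts do not set the list apart. Both genes encode inhibitors of the cyclin D kinases. Cdkn2c, which encodes the inhibitor p18, had levels of 7.07, 6.94 and 6.73 in the knockout arrays, against 6.15, 6.53 and 6.33 in the wild-type arrays. The groups did not overlap, and the log2 difference was 0.58 ± 0.13 (SE; limma, unadjusted p = 0.00241, adjusted p = 0.402). It stayed between 0.48 and 0.67 with 1 array left out. The wild-type arrays of Cdkn2c stood little above the olfactory background level of 5.98, and its mean was not above the median gene. Cdkn2b, which encodes the related inhibitor p15, had levels of 7.22, 7.25 and 7.46 in the knockout arrays, against 7.71, 7.65 and 7.50 in the wild-type arrays, which gave −0.31 ± 0.10 (SE; limma, unadjusted p = 0.0132, adjusted p = 0.538). With 1 array left out it ranged from −0.38 to −0.27, and without wild type 1 the unadjusted p was 0.0504. The pocket protein gene Rbl1 differed by 0.18 and the repressor gene E2f4 by −0.17, with overlapping groups. Without wild type 2 Rbl1 differed by 0.27, and without knockout 1 or wild type 3 E2f4 differed by −0.11.

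**Figure D5:**
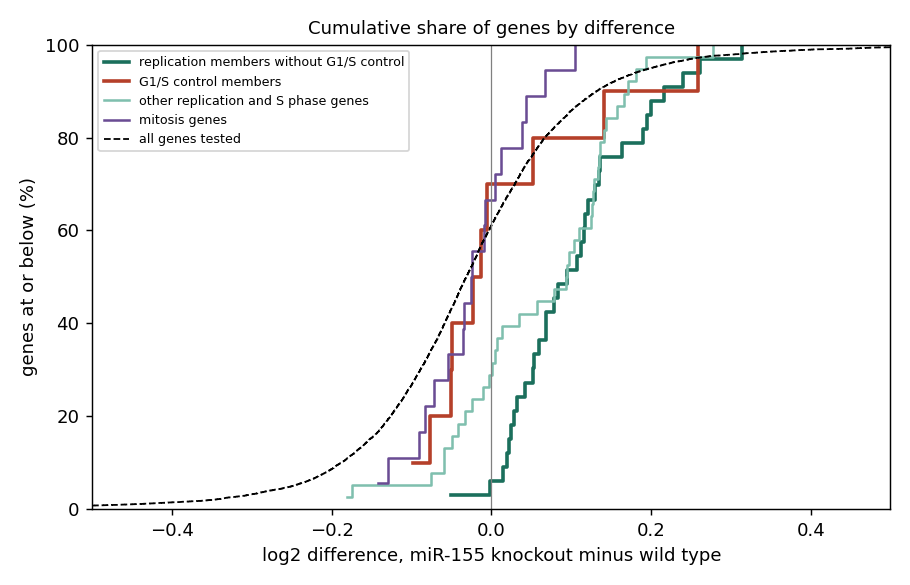
Cumulative share of genes by log2 difference, knockout minus wild type, for the 33 replication members without G1/S control, the 10 G1/S control members, 38 other replication genes, 18 mitosis genes and all 14860 genes (dashed). The replication curves lie right of the all-gene curve, with medians of 0.10 and 0.09 against −0.03, and the G1/S control and mitosis curves have medians near 0.

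Among 10 lists of markers of cell types, the summed levels of 4 did not overlap between the genotypes. The summed level of 7 monocyte and macrophage markers ran from 10.85 to 11.28 in the knockout arrays and from 11.39 to 11.58 in the wild-type arrays on the log2 scale. The summed level of 5 megakaryocyte markers ran from 11.13 to 11.23 in the knockout arrays and from 10.79 to 10.97 in the wild-type arrays. For 4 B lymphoid markers, of which Ebf1 lay below the olfactory percentile, the range was 8.394 to 8.57 in the knockout arrays and 8.17 to 8.386 in the wild-type arrays. For 7 stem and progenitor markers it was 14.00 to 14.09 in the knockout arrays and 14.10 to 14.16 in the wild-type arrays. These 7 include the transduced Hoxa9 and Meis1. Hoxa9 alone stood between 13.12 and 13.31 on the log2 scale, so this sum is largely set by the transduced genes. Monocyte and progenitor sums were thus lower, and megakaryocyte and B lymphoid sums higher, on every knockout array. A sum follows its brightest markers. Of single markers, the groups did not overlap in 3 of 7 monocyte (lower), 3 of 5 megakaryocyte (higher) and 1 of 7 progenitor markers (lower). In the B lymphoid list 1 of 4 markers did so each way. Among all genes, 2.88% were separated with the knockout higher and 10.4% with the knockout lower. The progenitor count of 1 of 7 therefore does not stand apart from that background. These shares are for single genes and not for sums. The monocyte markers had a median log2 difference of −0.02, with 2 of 7 above 0. The sums of mast cell, eosinophil, erythroid, T lymphoid, stromal and neutrophil markers overlapped. For the 10 neutrophil granule markers the range was 15.49 to 15.61 in the knockout arrays and 15.47 to 15.52 in the wild-type arrays. Single markers without overlap also occurred in lists whose sums overlapped. Higher in the knockout were 3 of 10 neutrophil, 2 of 7 mast cell, 1 of 5 eosinophil and 1 of 4 erythroid markers. Lower were 1 of 10 neutrophil, 1 of 4 erythroid and 1 of 7 stromal markers. Of the T lymphoid markers 0 of 5 were separated either way. Whether cell makeup differed, and what part it had in the values of the replication genes, was not tested.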

How the data were processed

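Total RNA of cultured cells was biotin-labelled for Affymetrix arrays with a whole-transcript kit (per the labels). The authors deposited log2 expression values. Per the submitters' processing notes these came from RMA in Affymetrix Expression Console (version and settings not given in the sources used here). The values span 0.9 to 13.74, as a log2 scale does. RMA is meant to equalise the distributions of the arrays, which hides a change in total RNA and can shrink small differences. The deposited arrays were not fully equal, since their medians ran from 6.55 to 6.66 and a further quantile normalisation moved some counts. With 3 arrays a group, a member's difference had a median standard error of 0.10.

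The platform annotation gave 1 gene symbol to 14996 of the 23332 rows, several to 1019 and none to 7317. RefSeq held 14941 of the single-symbol rows by gene identifier. Per gene the row with the highest mean was used, which gave 14860 genes, and each measured member had 1 such row. A further row of several symbols was not used for Tyms and for Ccnd3. A row's brightness also reflects its probes, so levels of different genes were not compared.

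Samples were grouped by title, and wild-type replicates were numbered in listing order. Genotypes were compared with limma 3.58.1 (lmFit and eBayes) in R 4.3.3, two-sided, with Benjamini-Hochberg adjustment over all genes and a threshold of 0.05. Simulated data with known changes were used to test the fit. At the adjusted threshold it recovered 45% of changes of 0.5 on the log2 scale and 87% of changes of 1. The simulated noise was independent from gene to gene, without the main axis that the real arrays share. These rates may therefore be too high for the real comparison. Smaller changes, such as those of the members, were not simulated. With 3 arrays a side, exact permutation cannot reach a p below 0.1. The members and lists were chosen with earlier results of these data known, so no list was tested.

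Values on every array are given for members with an unadjusted p under 0.05 or no overlap and, per role, for the member with the largest difference and the brightest row. Mcm2 and Tk1 were added after their values were seen. Of each other list, up to 4 genes with the smallest p were named. Alternatives were median centring, quantile normalisation, array weights, trend and robust variance, a filter at the 50th percentile of level, mean rows per gene, each array left out and the side of the first principal component in the model. Plots were made in matplotlib 3.10.9 under Python 3.11.15.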

Additional observations from a re-analysis of the deposited data

How the results depend on the processing

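In none of the 14 alternative fits did a member pass the adjusted threshold, and the lowest adjusted p of the 11 members followed was 0.178, for Cdt1 with array weights (range over its alternatives 0.178 to 0.849). Without 1 array the members' median difference ranged from 0.0391 to 0.1252 and members above 0 from 30 to 37. At an unadjusted p under 0.05 in those fits, members higher ranged from 1 to 8 (1.33% to 3.49% of all genes). Members lower ranged from 0 to 0, against 539 to 958 of the 14860 genes. Members with every knockout array above every wild-type array ranged from 3 to 17 and those below from 0 to 1, against 4.89% to 10.2% of all genes above and 14.2% to 21.3% below, since groups of fewer arrays overlap less often. Members higher at an unadjusted p under 0.05 were 6 with array weights (4.27% of all genes) and 5 with the side of the first component in the model (3.15%), beside 3 as deposited (1.78%). Members with no overlap on the higher side were 7 after median centring (4.14% of all genes) and 10 after quantile normalisation (4.72%). Over all genes, 4 passed the adjusted threshold as deposited, 2 after centring, 16 with array weights, 9 with a variance trend, 14 among genes above the median level and 0 to 1 without 1 array. The cause of these shifts was not tested. Of 154 values of the 11 members, 6 changed sign: Mcm3 to −0.0038 without wild type 1, and Rfc5 to 0.0101 after centring, 0.0153 after quantile normalisation, 0.0019 with the component side in the model, 0.0097 without knockout 3 and 0.0376 without wild type 1. Without 1 array Mcm3 ranged from −0.0038 to 0.0779 and Rfc5 from −0.0221 to 0.0376. No paired analysis was possible because the wild-type titles carry no replicate number that tells them apart.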

Other observations

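Other cell cycle regulators, picked once their values were known, lay close together in the genotypes. Wee1, the kinase that holds back mitotic entry and a reported target of miR-155, read 9.16, 9.16 and 9.14 in the knockout arrays, against 9.16, 9.18 and 9.04 in the wild-type arrays, and the interval of its log2 difference ran from −0.14 to 0.20. Cdk6, a cyclin D kinase that Hoxa9-driven cells are known to use, differed by 0.06 with a standard error of 0.07. Myc, which drives entry into the cycle, read 12.21, 12.16 and 12.09 in the knockout arrays, against 12.19, 12.19 and 11.80 in the wild-type arrays, and wild type 3 was the low array. The inhibitor genes Cdkn1a and Cdkn1b differed by −0.08 and −0.10, each with overlapping groups.

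Slbp, whose protein binds the stem-loop of histone messenger RNAs in S phase, gave values of 6.67, 6.40 and 2.01 in the knockout arrays, against 2.51, 6.50 and 5.78 in the wild-type arrays. Knockout 3 and wild type 1 stood far below the other arrays, so the low arrays did not follow genotype.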
